A study of Mus musculus with 9 samples.

Results

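Cyp4a10, Cyp4a14, Pdk4, Angptl4, Acot1, Acot2, Plin2 and Vnn1 are known targets of the nuclear receptor PPAR alpha in the renal tubule and the liver, and they are described here in aged and young kidneys. The genes were found on the arrays by symbol, and no measured value entered that rule, although earlier results of these data were known when the list was drawn up. A probe set that carried the symbol of 1 gene alone was found for all 8 of 8, among 19938 genes measured in the same way. Each member had a single such probe set, so that no choice between probe sets was needed.

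Whole kidneys came from female wild type mice on a mixed FVB/C57BL6 background, 5 mice at 96 weeks of age and 4 mice at 14 weeks, with 1 Affymetrix Mouse Gene ST array per mouse. The study asked how aging changes the kidney, and the labels name no treatment at either age. The methods give 5 mice for each age, whereas the labels give an age for 9 arrays, and these entered the comparison. The mixed background may add genetic differences among mice, and the sources used here give neither the hour of collection nor the feeding state.

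The values are deposited log2 signals, already summarised per probe set and scaled between arrays. A difference between ages is a log2 fold change and can be read across genes, while the signals of different probe sets cannot be set against each other. A gene was called when its adjusted p from limma was under 0.05, with the Benjamini-Hochberg method over all 19938 genes. Errors are standard deviations over mice unless stated. The arrays correlated at 0.982 to 0.997 with each other, and their medians lay between 6.54 and 6.59. The tissue carried the markers of its label: the mean of 13 proximal tubule markers was 10.77 to 11.05 at 96 weeks and 10.93 to 11.03 at 14 weeks. Megalin (Lrp2), an endocytic receptor of that segment, averaged 12.68 in aged and 12.69 in young kidneys. In whole kidney RNA, fewer cells of a type and less RNA per cell cannot be told apart.

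PPAR alpha is switched on by fatty acids and their derivatives and by fibrate drugs. It pairs with the retinoid X receptor and binds a direct repeat of the hexamer AGGTCA with a single base between the copies. In liver and in the proximal tubule, a segment that draws its energy mainly from fatty acids, it raises genes of fatty acid uptake, activation and oxidation, above all during fasting. Several of its targets also answer to other PPARs, to glucocorticoids or to low oxygen.

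Promoters from the RefSeq gene set on GRCm38.p6, 250 bases before to 50 bases after each start, were held for 4 of the 8 genes, namely Pdk4, Acot1, Acot2 and Plin2. Cyp4a10, Cyp4a14, Angptl4 and Vnn1 were not matched. The stretches upstream of Acot1, the member that was called, of its neighbouring paralog Acot2 and of Plin2 are given from 5′ to 3′ on the strand of the gene, because the 3 genes differ in how close they come to the binding element. Capitals mark the stretch nearest to the repeat AGGTCANAGGTCA on either strand, where it differs from the repeat at 3 bases or fewer. They lie at chr4:86670060-86670309 on the minus strand for Plin2, and at chr12:83987611-83987860 for Acot2 and chr12:84009252-84009501 for Acot1 on the plus strand.
Plin2: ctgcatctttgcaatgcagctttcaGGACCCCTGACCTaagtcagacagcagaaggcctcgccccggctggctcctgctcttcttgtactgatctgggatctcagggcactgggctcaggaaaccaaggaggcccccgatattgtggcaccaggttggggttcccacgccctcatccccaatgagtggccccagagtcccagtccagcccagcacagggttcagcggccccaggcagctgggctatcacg
Acot2: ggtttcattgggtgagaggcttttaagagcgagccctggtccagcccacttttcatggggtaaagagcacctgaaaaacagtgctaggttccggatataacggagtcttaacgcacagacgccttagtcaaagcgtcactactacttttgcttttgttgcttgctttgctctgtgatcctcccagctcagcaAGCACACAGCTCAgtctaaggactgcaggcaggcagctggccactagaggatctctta
Acot1: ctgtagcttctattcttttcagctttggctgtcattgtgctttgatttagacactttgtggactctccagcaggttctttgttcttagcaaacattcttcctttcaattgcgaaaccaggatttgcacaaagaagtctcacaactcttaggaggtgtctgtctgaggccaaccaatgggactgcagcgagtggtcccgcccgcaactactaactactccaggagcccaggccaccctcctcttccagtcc

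In Plin2 the marked stretch read AGGTCAGGGGTCC on the strand opposite to the gene and differed from the repeat at 2 bases, between -225 and -213 from the start. It held the only intact hexamer AGGTCA among the 4 promoters, a motif that 16.3% of 32851 promoter windows of the same length carried on either strand. The stretch in Acot2 differed at 3 bases, between -58 and -46. In Acot1 and Pdk4 the nearest stretch differed at 4 bases and is not marked. Among all windows 3.86% came within 2 bases of the repeat, 24.6% within 3, 0.554% within 1, and 0.0396% held it exactly. A match is a run of letters and not a measured binding site.

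Acot1 rose at 96 weeks, and none of the other 7 members was called. Acot1 was thus 1 of 8 members higher, against 4.31% of all genes. None was lower, against 2.40% of all genes. Plin2 was also higher in every aged kidney than in every young one, and Cyp4a10 lower in every aged kidney. The groups of mice did not overlap for 2 members that were higher, where 7.49% of all genes stood apart in that direction, and for 1 that was lower, where 5.79% did. All 8 members lay above the median signal of all genes, and among genes above that median 14.0% stood apart upwards and 4.81% downwards, while 8.17% were called higher and 2.33% lower. At an unadjusted p under 0.05 from limma, Acot1, Plin2 and Cyp4a10 passed. With the methods' t-test 0 members passed after adjustment, against 367 of all 19938 genes. The same number of members as with limma, 3, had an unadjusted p under 0.05. The share of all genes at an unadjusted p under 0.05 was not computed. No excess is therefore read from such counts, here or for the gene lists below. No member reached a fold change of 1.5 with an unadjusted p under 0.05, a mark that 1.60% of all genes passed. The log2 fold changes of 5 members were positive and those of 3 negative, and the median was 0.13, against -0.026 for all genes. With dim genes filtered out, the median over the remaining genes was 0.013. With 8 genes these shares rest on single genes, and nothing particular to the members was read from them.

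**Figure D1:**
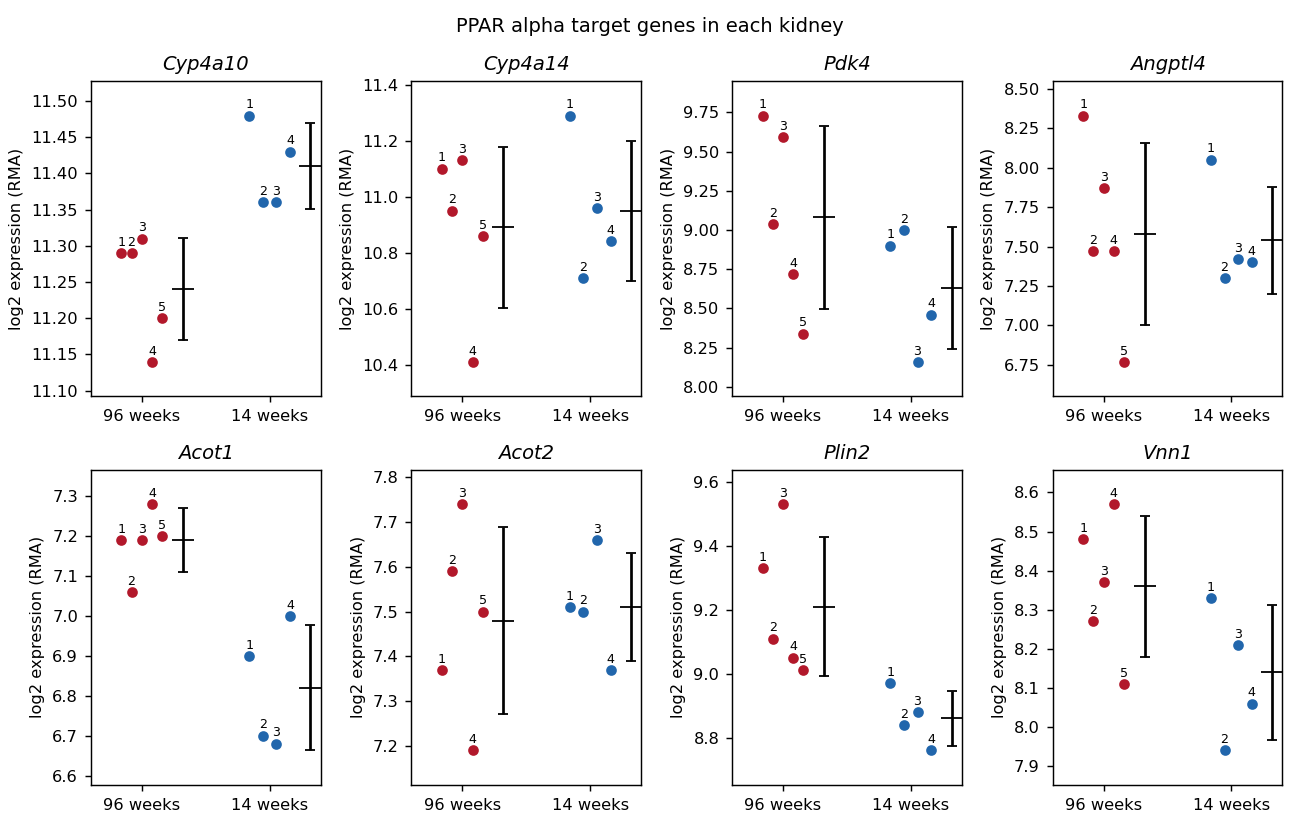
Log2 signal (vertical axes) of the 8 PPAR alpha target genes in each kidney, at 96 weeks (5 mice, left in each panel) and 14 weeks (4 mice, right). Points are mice and bars the mean with 1 SD. Acot1 and Plin2 lie higher and Cyp4a10 lower in all 5 aged kidneys, while the points of the other 5 genes overlap, widest for Pdk4 and Angptl4.

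Cyp4a10 and Cyp4a14 encode cytochrome P450 enzymes that hydroxylate the far end of fatty acids, a step of microsomal oxidation, and both are among the most strongly induced PPAR alpha targets of rodents. Cyp4a10 had log2 signals of 11.29, 11.29, 11.31, 11.14 and 11.20 at 96 weeks, against 11.48, 11.36, 11.36 and 11.43 at 14 weeks. Every aged kidney lay below every young one, with means of 11.24 ± 0.0706 (SD, n = 5) in aged kidneys and 11.41 ± 0.0593 (SD, n = 4) in young kidneys. The log2 fold change was -0.16 (standard error 0.0535, 95% interval -0.28 to -0.04, adjusted p = 0.089 from limma). The exact two-sided permutation test, which takes every split of the arrays, gave p = 0.0079, the smallest it can give. The mice thus separated by a 0.893-fold signal, but Cyp4a10 did not reach the threshold over all genes.

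Cyp4a14 had log2 signals of 11.10, 10.95, 11.13, 10.41 and 10.86 at 96 weeks, against 11.29, 10.71, 10.96 and 10.84 at 14 weeks. The groups overlapped throughout, and replicate 4 at 96 weeks was the lowest of the 9 arrays. The means were 10.89 ± 0.289 (SD, n = 5) in aged kidneys and 10.95 ± 0.25 (SD, n = 4) in young kidneys, a log2 fold change of -0.06 (standard error 0.156, 95% interval -0.40 to 0.29, adjusted p = 0.82 from limma). The sign turned without replicate 4 at 96 weeks (0.06) and without replicate 1 at 14 weeks (0.06). The difference between the paralogs, Cyp4a10 minus Cyp4a14, ran from 0.18 to 0.73 in aged and from 0.19 to 0.64 in young kidneys. It shifted by -0.11 (exact permutation test, two-sided, p = 0.52, adjusted over this pair and the thioesterase pair 0.52), a comparison chosen after the values were seen.

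The Cyp4a genes are near copies of each other, and a probe set can read several of them. A further probe set, annotated to Cyp4a10, Cyp4a31 and Cyp4a32 together and so left out of the members, read 11.78, 11.72, 11.74, 11.64 and 11.70 at 96 weeks, against 11.95, 11.69, 11.82 and 11.81 at 14 weeks. These groups overlapped, with replicate 2 at 14 weeks inside the aged range, and the log2 difference was -0.10 (exact permutation test, two-sided, p = 0.095). Cyp4a31, a close paralog with a probe set of its own, differed by -0.20 (adjusted p = 0.066 from limma) and lay lower in all 5 aged kidneys. It passed after a repeated quantile normalization or cyclic loess between arrays. Cyp4a12a, a form more abundant in males, had 0.46 (adjusted p = 0.36 from limma), and Cyp4f13 had 0.23 (adjusted p = 0.15 from limma). Of 16 further genes of the Cyp4 family 11 were measured, and 0 were called in either direction (1 higher and 1 lower at an unadjusted p under 0.05 in limma).

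Pyruvate dehydrogenase kinase 4, encoded by Pdk4, blocks the entry of pyruvate into the citric acid cycle and so spares glucose while fatty acids are burned. Pdk4 had log2 signals of 9.73, 9.04, 9.59, 8.72 and 8.34 at 96 weeks, against 8.90, 9.0, 8.16 and 8.46 at 14 weeks. In 3 of 5 aged kidneys it was above every young kidney, while the other 2 lay within the young range. The means were 9.08 ± 0.583 (SD, n = 5) in aged kidneys and 8.63 ± 0.388 (SD, n = 4) in young kidneys. The log2 fold change of 0.46 was the largest of the 8 members. It was smaller than the SD at 96 weeks but larger than that at 14 weeks, and its interval included 0 (standard error 0.284, 95% interval -0.18 to 1.09, adjusted p = 0.30 from limma; exact permutation test, two-sided, p = 0.21). None of 12 measured genes of the pyruvate dehydrogenase complex, its other kinases and its phosphatases was called, with 0 higher and 1 lower at an unadjusted p under 0.05 in limma. Nearest to the threshold was the shared subunit Dld (-0.19, adjusted p = 0.062 from limma), followed by the subunit Pdhb (-0.11, adjusted p = 0.24 from limma).

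Angptl4 encodes a secreted inhibitor of lipoprotein lipase, which holds back the release of fatty acids from circulating lipoproteins. Angptl4 had log2 signals of 8.33, 7.47, 7.87, 7.47 and 6.77 at 96 weeks, against 8.05, 7.30, 7.42 and 7.40 at 14 weeks. Aged kidneys held both the highest and the lowest value, and replicate 1 at 14 weeks stood apart from the other young ones. The means were 7.58 ± 0.577 (SD, n = 5) in aged kidneys and 7.54 ± 0.34 (SD, n = 4) in young kidneys. The log2 fold change was 0.04 (standard error 0.274, 95% interval -0.57 to 0.65, adjusted p = 0.93 from limma), and its sign turned under several settings. Lipoprotein lipase itself (Lpl) had -0.50 and the family member Angptl1 had 0.38 (adjusted p = 0.16 and 0.12 from limma). Of 8 measured genes around the angiopoietin-like family and lipoprotein lipase, 0 were called, and 1 was higher and 2 lower at an unadjusted p under 0.05 in limma.

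Acot1 and Acot2 encode acyl-CoA thioesterases, which split fatty acyl-CoA into free fatty acid and coenzyme A in the cytosol and in mitochondria. Acot1 had log2 signals of 7.19, 7.06, 7.19, 7.28 and 7.20 at 96 weeks, against 6.90, 6.70, 6.68 and 7.0 at 14 weeks. The highest young kidney lay just under the lowest aged one. Its means were 7.19 ± 0.08 (SD, n = 5) in aged kidneys and 6.82 ± 0.157 (SD, n = 4) in young kidneys. Acot1 rose 1.29-fold, a log2 fold change of 0.37 (95% interval 0.20 to 0.54, standard error 0.0766, adjusted p = 0.024 from limma; exact permutation test, two-sided, p = 0.0079). The call ended without replicate 2 (adjusted p = 0.060 from limma) or replicate 3 (0.061) at 14 weeks, without replicates 3 and 4 at 96 weeks together (0.070) and with the methods' t-test (0.073), each time with a difference of 0.32 to 0.37.

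Acot2, the mitochondrial paralog, was not called. Acot2 had log2 signals of 7.37, 7.59, 7.74, 7.19 and 7.50 at 96 weeks, against 7.51, 7.50, 7.66 and 7.37 at 14 weeks. The groups overlapped, with means of 7.48 ± 0.209 (SD, n = 5) in aged kidneys and 7.51 ± 0.12 (SD, n = 4) in young kidneys. The log2 fold change was -0.03 (standard error 0.105, 95% interval -0.26 to 0.20, adjusted p = 0.87 from limma). Acot1 minus Acot2 ran from -0.55 to 0.09 in aged and from -0.98 to -0.36 in young kidneys. The shift of 0.40 between ages did not pass (exact permutation test, two-sided, p = 0.071, adjusted over both pairs 0.14; chosen after the values were seen), so that a different response of the paralogs is not shown. The genes are close copies, and how far their probes also read each other was not tested.

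Of 13 further thioesterase genes only the peroxisomal Acot8 was called, higher by 0.32 (adjusted p = 0.041 from limma; called in 9 of 19 other settings). The paralogs of the cluster that holds Acot1 were not called. Acot4, which acts in peroxisomes, was higher in all 5 aged kidneys by 0.30 on average (adjusted p = 0.084 from limma). Acot3 and Acot5, also of peroxisomes, had -0.06 and -0.16 (adjusted p = 0.78 and 0.28 from limma).

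Plin2 encodes perilipin 2, the coat protein of lipid droplets in cells other than adipocytes, and its mRNA follows fatty acid load. Plin2 had log2 signals of 9.33, 9.11, 9.53, 9.05 and 9.01 at 96 weeks, against 8.97, 8.84, 8.88 and 8.76 at 14 weeks. All aged kidneys were above all young ones, although replicate 5 at 96 weeks and replicate 1 at 14 weeks nearly met. The means were 9.21 ± 0.218 (SD, n = 5) in aged kidneys and 8.86 ± 0.0874 (SD, n = 4) in young kidneys. The log2 fold change was 0.34, or 1.27-fold (standard error 0.104, 95% interval 0.11 to 0.58), and it missed the threshold (adjusted p = 0.073 from limma, 0.058 to 0.17 over the other settings; exact permutation test, two-sided, p = 0.024).

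Macrophages that take up lipid carry Plin2 as well, and macrophage markers moved with age in these kidneys. Of 14 markers 3 were higher, Lyz2, Csf1r and Tyrobp, and 0 lower, and they were called in 19, 17 and 8 of 19 other settings. At an unadjusted p under 0.05 in limma 11 of the 14 were higher and 1 lower. Without replicates 3 and 4 at 96 weeks, the log2 fold change of Tyrobp went from 1.17 to 0.70 and that of Lyz2 from 2.54 to 2.04. That of Csf1r went from 0.45 to 0.56, and these 2 kidneys held its lowest aged values (8.33 and 8.50). The mean over the marker list was 6.76 to 7.75 at 96 weeks, where replicates 3 (7.73) and 4 (7.75) were highest, against 6.43 to 6.47 at 14 weeks. Plin2 was highest in replicate 3 (9.53) but low among the aged kidneys in replicate 4 (9.05), and without both kidneys the Plin2 difference was 0.29 (adjusted p = 0.086 from limma). The part of macrophages in the Plin2 value was not tested. Of 16 other genes of perilipins and lipolysis 0 were called, and 3 were higher and 3 lower at an unadjusted p under 0.05 in limma. Monoglyceride lipase (Mgll) had 0.40 and the lipolysis inhibitor G0s2 had 0.17 (adjusted p = 0.058 and 0.079 from limma).

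Vnn1 encodes vanin 1, a pantetheinase on the cell surface that releases the coenzyme A precursor pantothenate. Vnn1 had log2 signals of 8.48, 8.27, 8.37, 8.57 and 8.11 at 96 weeks, against 8.33, 7.94, 8.21 and 8.06 at 14 weeks. In 3 of 5 aged kidneys it lay above every young kidney. The means were 8.36 ± 0.18 (SD, n = 5) in aged kidneys and 8.14 ± 0.173 (SD, n = 4) in young kidneys, with a log2 fold change of 0.22 (standard error 0.106, 95% interval -0.01 to 0.46, adjusted p = 0.19 from limma; exact permutation test, two-sided, p = 0.10). Of 10 further genes of pantetheinases and coenzyme A synthesis only Pank2, a kinase that starts coenzyme A synthesis, was called, higher by 0.30 (adjusted p = 0.012 from limma). Its relative Pank1 had -0.35 (adjusted p = 0.060 from limma) and was lower in all 5 aged kidneys.

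**Figure D2:**
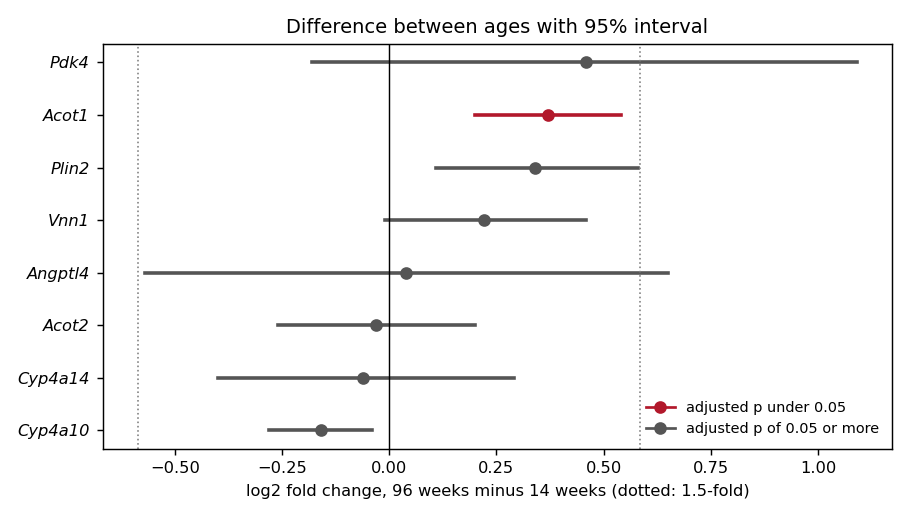
Log2 fold change, 96 weeks minus 14 weeks (horizontal axis), of the 8 PPAR alpha target genes with its 95% interval from limma; dotted lines mark a fold change of 1.5. The intervals of Acot1 and Plin2 lie above 0 and that of Cyp4a10 below 0, and the intervals of the other 5 include 0, widest for Pdk4 and Angptl4.

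Mice of the same age differed from each other in several members at a time. Replicates 1 and 3 at 96 weeks were above the mean of their age for 7 and 8 of the 8 members, by 0.22 and 0.21 on the log2 scale on average. Replicates 4 and 5 at 96 weeks were above it for 2 members each, with average deviations of -0.15 and -0.26. Among young kidneys replicate 1 was above the mean for 7 members, by 0.20 on average, and the other 3 deviated by -0.06 to -0.07. Pdk4 and Angptl4 had the largest deviations. In replicate 1 at 96 weeks they deviated by 0.65 and 0.75, and in replicate 5 by -0.75 and -0.81. Acot1 and Cyp4a10 hardly took part at 96 weeks, where the 5 values of Acot1 spanned 7.06 to 7.28 and those of Cyp4a10 11.14 to 11.31. The counts for replicates 1 and 3 at 96 weeks include Acot1 deviations of 0.01 and 0.0, and that for replicate 3 a Vnn1 deviation of 0.01. The share of all genes above the group mean in each kidney was not computed. A shift of the members is therefore not told apart from one of the whole array. The deviations are a description over 9 arrays with no test.

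**Figure D3:**
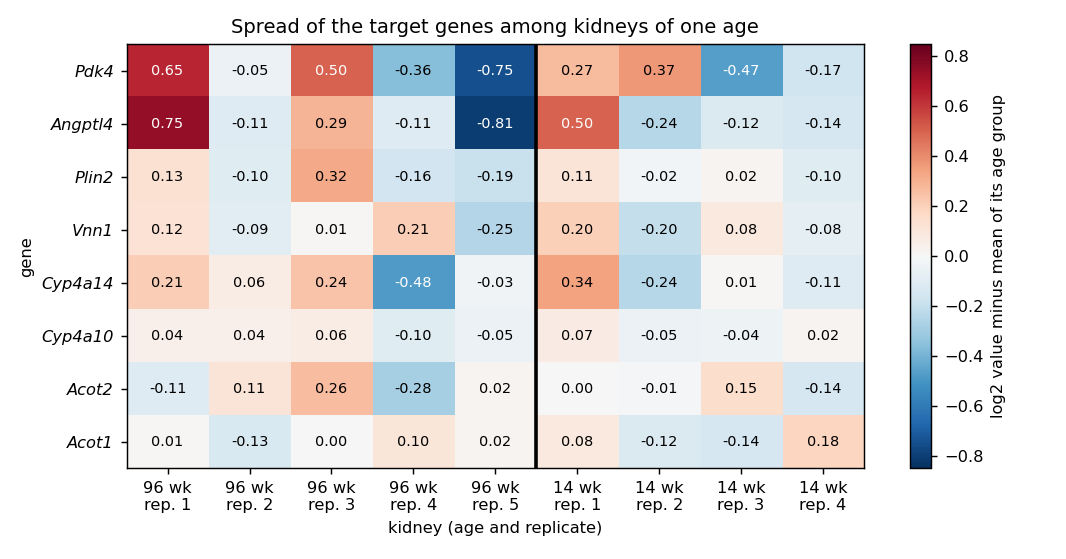
Deviation of each member (rows) from the mean of its own age group in each kidney (columns, 96 weeks left and 14 weeks right), in log2 units, red above and blue below the group mean. Replicates 1 and 3 at 96 weeks and replicate 1 at 14 weeks are above the group mean for at least 7 of 8 genes, and replicates 4 and 5 at 96 weeks are mostly blue.

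The circadian clock and glucocorticoids also act on targets of PPAR alpha, and a few genes that report on them were called with age. Of 14 clock genes, Bmal1 was higher by 1.16 (adjusted p = 0.044 from limma) and Dbp, Ciart and Per3 were lower (-0.98, -0.90 and -0.84; adjusted p = 0.0077, 0.024 and 0.038 from limma). Bmal1 was called in 6 of 19 other settings, Per3 in 8, Ciart in 12 and Dbp in 19. Bmal1 read 6.91, 8.33, 7.59, 8.39 and 8.28 at 96 weeks, against 6.64, 6.97, 6.36 and 7.0 at 14 weeks. Replicate 1 at 96 weeks was thus the 1 aged kidney within the young range of Bmal1. At an unadjusted p under 0.05 in limma 2 of the 14 clock genes were higher and 9 lower. The mean over the clock list was 7.27 to 7.67 at 96 weeks and 7.65 to 7.82 at 14 weeks. Of 12 glucocorticoid-responsive genes Klf9 was lower (-0.44, adjusted p = 0.042 from limma; called in 8 of 19 other settings), with a list mean of 8.17 to 8.55 at 96 weeks and 8.35 to 8.64 at 14 weeks. At an unadjusted p under 0.05 in limma 6 of these 12 were lower and 0 higher. Per1 is in both the clock and the glucocorticoid list and counts as lower in each, so the counts are not separate. Of 12 genes that respond to low oxygen, as Angptl4 does, the glucose transporter Slc2a1 was higher (0.57, adjusted p = 0.0032 from limma), with a list mean of 8.66 to 8.95 at 96 weeks and 8.66 to 8.72 at 14 weeks. Here 3 were higher and 0 lower at an unadjusted p under 0.05 in limma. The part of these in the member values was not tested.

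Markers of other cell types were read in the same kidneys. Adipocytes express Angptl4, Plin2 and Pdk4, and the mean of 10 adipocyte markers was 5.56 to 5.81 at 96 weeks and 5.65 to 6.43 at 14 weeks, where replicate 2 was highest. The adipokine Adipoq read 5.50 in that kidney, against 4.32 to 4.58 in the other young ones and 4.19 to 4.79 at 96 weeks. Ucp1 read 6.88 there, against 4.15 to 4.71 in all other kidneys, and Car3 7.83, against 5.58 to 5.94. Not every marker of the list was highest in that kidney. None of the markers was called, and the 2 with an unadjusted p under 0.05 in limma were both lower, Plin1 (-0.18, adjusted p = 0.11 from limma) and Cidea (-0.29, adjusted p = 0.14 from limma), which coat or enlarge lipid droplets. Plin1 (6.57) and Cidea (4.56) were also highest in replicate 2 at 14 weeks. With replicate 2 at 14 weeks left out, the fold changes on the log2 scale were 0.58 for Pdk4, -0.04 for Angptl4 and 0.34 for Plin2. The mean of 10 endothelial markers was 8.24 to 8.60 at 96 weeks and 8.28 to 8.45 at 14 weeks, with Eng called higher (0.44, adjusted p = 0.038 from limma; called in 9 of 19 other settings). At an unadjusted p under 0.05 in limma 1 of the 10 was higher, Eng, and 1 lower, Ehd3. Ehd3 had -0.39 (adjusted p = 0.059 from limma) and was lower in every aged kidney than in every young one. Of 13 proximal tubule markers 1 was called, Slc7a13 (-0.87, adjusted p = 0.010 from limma), and of 10 markers of other nephron segments 0 were. At an unadjusted p under 0.05 in limma 2 of these 10 were lower, the sodium channel subunit Scnn1g (-0.22, adjusted p = 0.11 from limma) and the calcium-binding protein Calb1 (-0.47, adjusted p = 0.12 from limma).

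Of the receptor and its partners, only the coactivator Ppargc1a was called, and it was lower. Ppara, which encodes PPAR alpha, had log2 signals of 8.78, 8.69, 8.30, 8.12 and 8.52 at 96 weeks, against 8.93, 8.66, 8.92 and 8.82 at 14 weeks. In 3 of 5 aged kidneys Ppara lay below every young one, and the groups overlapped. The log2 fold change was -0.35 (standard error 0.129, adjusted p = 0.12 from limma, 0.075 to 0.26 over the other settings). The coactivator Ppargc1a (PGC-1 alpha), which drives mitochondrial and fatty acid oxidation genes with PPAR alpha, had log2 signals of 10.92, 10.75, 10.44, 10.71 and 10.80 at 96 weeks, against 11.21, 11.22, 11.08 and 11.36 at 14 weeks. Ppargc1a was lower in every aged kidney and fell by 0.49 in log2 units (standard error 0.0938 over 9 arrays, adjusted p = 0.017 from limma). This call ended without replicate 4 at 14 weeks (adjusted p = 0.055 from limma) and with the methods' t-test (0.066).

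The other PPARs and the partner receptor were not called. Ppard (PPAR delta), which shares targets such as Pdk4, Angptl4 and Plin2, differed by 0.33 (adjusted p = 0.15 from limma), with 7.58, 8.01, 7.45, 8.17 and 7.82 at 96 weeks and 7.36, 7.39, 7.53 and 7.62 at 14 weeks. Pparg had 0.11 and Rxra 0.06 (adjusted p = 0.36 and 0.43 from limma). Of 19 measured receptors and coregulators, of 21 listed, Ppargc1a was the gene called.

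Among 58 measured further targets of PPAR alpha, of 64 listed in 4 groups, 10 were higher and 0 lower. This is 17.2% higher, against 4.31% of all genes, and the list median was 0.09, against -0.026. Of the 48 further targets above the median signal 18.8% were higher, against 8.17% of all genes above it. Positive log2 fold changes were found for 41 of the 58, against 43.4% of all genes. The share of 43.4% and the median of -0.026 include dim genes, whereas 48 of the 58 lay above the median signal. With dim genes filtered out, the median over the remaining genes was 0.013. The share of positive changes among genes above the median signal was not computed, so no excess of positive signs is read from this count. The count depended on the arrays and the scaling, with 4 to 13 higher when single arrays were left out, the 13 without replicate 3 at 96 weeks, and with 5 higher and 2 lower when quantile normalization was repeated. The lists were written with earlier results of these data known, so that the counts are a description.

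The 10 genes lay in each of the 4 groups. In peroxisomal and microsomal oxidation 3 of 16 were higher, Ech1, Decr2 and Acot8, in mitochondrial oxidation and ketogenesis 2 of 16, Acaa2 and Cpt2, in uptake and binding 3 of 10, Fabp1, Cd36 and Acsl5, and among lipid droplet, lipogenic and secreted targets 2 of 16, Fads2 and Retsat. Ech1, an isomerase needed for unsaturated fatty acids, had log2 signals of 9.84, 9.79, 9.47, 9.38 and 9.59 at 96 weeks, against 9.27, 9.25, 9.17 and 8.82 at 14 weeks. All 5 aged kidneys were above the young ones, by 0.49 on average (standard error 0.118, adjusted p = 0.039 from limma; called in 9 of 19 other settings). Acsl5, which activates fatty acids to acyl-CoA, had 10.12, 10.23, 10.24, 10.31 and 10.21 at 96 weeks, against 9.85, 10.01, 9.83 and 9.72 at 14 weeks. Acsl5 rose by 0.37 on average (standard error 0.0638, adjusted p = 0.012 from limma; called in 18 of 19 other settings). The fatty acid translocase Cd36 had 10.72, 10.87, 10.70, 10.82 and 10.83 at 96 weeks, against 10.49, 10.55, 10.57 and 10.64 at 14 weeks. Its lowest aged kidney lay just above the highest young one, and Cd36 rose by 0.22 on average (standard error 0.055, adjusted p = 0.040 from limma; called in 6 of 19 other settings).

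Fabp1, the fatty acid carrier that hands ligands to PPAR alpha, had the largest difference of the 10, with 7.22, 6.26, 7.55, 7.23 and 6.74 at 96 weeks, against 5.42, 4.97, 4.98 and 5.42 at 14 weeks, so that every aged kidney was above every young one. Fabp1, Acaa2 and Retsat were called in 19 of 19 other settings, Cpt2 in 13, Fads2 in 11 and Decr2 in 9.

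**Figure D4:**
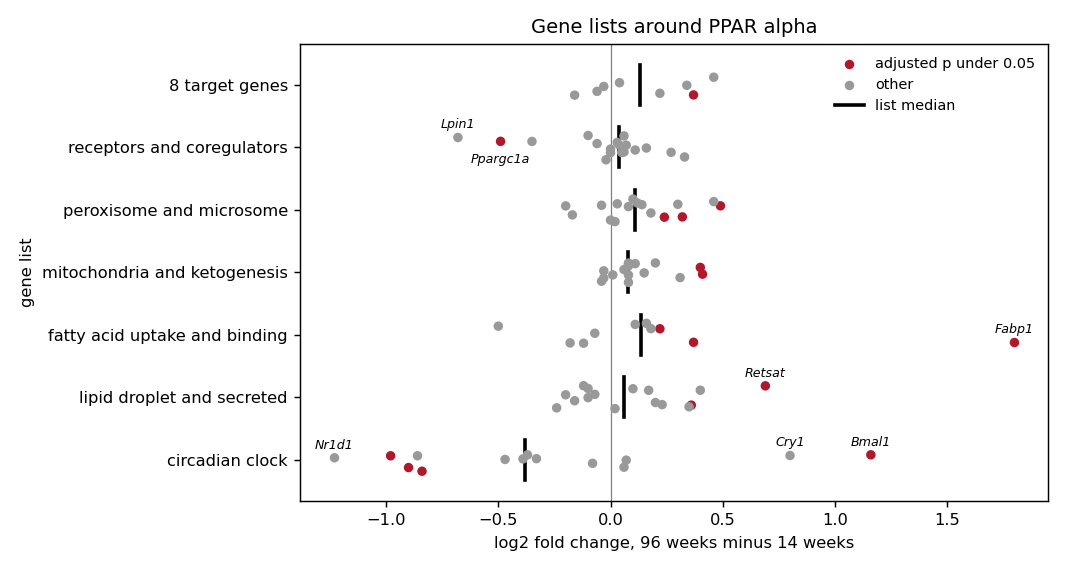
Log2 fold change, 96 weeks minus 14 weeks (horizontal axis), of the 8 members, of receptors and coregulators, of the 4 groups of further targets and of clock genes. Points are genes, red where the adjusted p from limma was under 0.05, and black lines mark the median of a list, which lies at 0.13 for the members and at -0.38 for the clock genes.

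For each member the genes with the most similar course over the 9 arrays were looked up among the 9961 other genes above the median signal. Pearson's r is given as a description, since the arrays share their scaling and the 2 ages. Cyp4a10 ran closest to Phldb2 (0.965) and to the phosphate and urate transporter Slc17a1 (0.963), and Cyp4a14 to Cd3eap (0.976) and Mtss1 (0.873). Pdk4 ran closest to Lsg1 (0.970) and Folr2 (0.912), Angptl4 to Map1s (0.904) and Brd8 (0.888), and Acot2 to Ror1 (0.955) and Ube2e3 (0.945). Acot1 ran closest to Gm4750 (0.959) and Xpo6 (0.954), and Plin2 to the small GTPase Rab13 (0.981) and to Prkab1 (0.969), a subunit of the energy sensor AMPK. Vnn1 ran closest to Cdk14 (0.932) and Pole3 (0.929). No member was among these genes, since members were set aside in the search.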

How the data were processed

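Kidney RNA of 9 mice (5 aged 96 weeks, 4 aged 14 weeks) was hybridised to Affymetrix Mouse Gene ST arrays. Per the labels, RMA from Affymetrix Power Tools 1.12.0 was used, with quantile normalization, and the deposited log2 values cover 35557 probe sets. Which genome build the annotation follows is not given in the sources used here. A gene symbol stood alone on 21789 probe sets, several symbols on 1621 and none on 12147. For 999 genes with several probe sets the brightest was kept, which gave 19938 genes.

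The ages were compared over all genes with limma 3.58.1 (lmFit, eBayes) in R 4.3.3, without covariates or a filter. Exact permutation tests took every split of the arrays and were two-sided (Python 3.11.15, scipy 1.17.1). The fit was tested on simulated data. The 19 alternatives covered the test, array weights, an intensity trend, a filter at the 30th percentile, scaling, probe sets, the replicate block and arrays left out. Members, gene lists and tests were chosen with earlier results of these data known. Named were all members and, of each other list, the genes that passed (otherwise the 2 with the smallest p), the PPARs, Rxra, Ppargc1a, the closest paralogs and, per member, the 3 genes with the highest r, of which 2 are printed. Lrp2, Adipoq, Ucp1, Car3, Pank1, Ehd3, Slc5a12 and Miox were named outside this rule, after their values were seen. The difference between paralogs and the shared Cyp4a probe set were added after the values were seen. Detection calls were not used, so a dim signal is no proof of expression. The number of arrays limits the precision.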

Additional observations from a re-analysis of the deposited data

Results flagged for a closer look

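Angptl4 at 14 weeks held a single kidney far from the rest of its group. Replicate 1 read 8.05, and its gap to the nearest young kidney was 0.843 of the range of the group, above Dixon's critical value of 0.829 for 4 samples. It was 1 of 16 groups of arrays looked at, and chance marks about 1 in 20. Without this kidney the log2 fold change of Angptl4 was 0.21 (adjusted p = 0.66 from limma).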

How the results depend on the processing

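The signs of Cyp4a10, Pdk4, Acot1, Plin2 and Vnn1 held in all 19 alternatives. Acot1 was no longer called with the methods' t-test (0.37), with the replicate number as a block (0.36, adjusted p = 0.053 from limma) or without replicates 3 and 4 at 96 weeks together (0.33), and it ranged over 0.32 to 0.43 when each array was left out in turn. The count of members higher was then 0, and 0 to 1 with each array left out. With replicates 3 and 4 at 96 weeks left out, Cyp4a14 turned to 0.02 and Angptl4 to -0.02. Angptl4 also turned with array weights (-0.10), a repeated quantile normalization (-0.03) and cyclic loess (-0.01). Leaving out each array, Cyp4a14 ranged over -0.14 to 0.06, Angptl4 over -0.15 to 0.24 and Acot2 over -0.10 to 0.04. The cause was not tested.

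Of all genes 860 were higher and 479 lower, against 484 and 505 after a repeated quantile normalization. Higher were 273 with the t-test, 562 with cyclic loess, 279 with the block, and 374 to 751 with each array left out. Lower were 94 with the t-test, 89 with the block, 286 without replicates 3 and 4 at 96 weeks, and 154 to 384 with each array left out. Of the further targets 10 were higher and 0 lower, against 4 and 1 with the t-test, 5 and 2 after a repeated quantile normalization, 5 higher with the block, 2 lower with cyclic loess, and 4 to 13 higher with each array left out. No scaling moved the median of all genes by 0.1. The deposited values were already scaled between arrays, so this median could hardly move, and it says nothing about single genes.

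Same-numbered mice of the 2 ages correlated at -0.0375 to 0.0762 in their deviations, and mice with different numbers at -0.0524 to 0.063. The labels do not say that the numbers pair mice. These correlations show no pairing but cannot exclude it, and the block leaves replicate 5 at 96 weeks without a partner. With 9 arrays, a member with the spread of Pdk4 or Angptl4 has an interval wide enough to hold a fold change of 1.5.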
